A study of Mus musculus with 4 samples.

Results

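The comparison described here is between 2 sections of mouse brain organoids, out of 4 in the series: organoids given BMS753, an agonist of retinoic acid receptor alpha, and organoids given all-trans retinoic acid (ATRA), which activates all 3 types of retinoic acid receptor. The 2 sections were chosen because both ligands were used at 1 µM, the only matched dose among the sections. All organoids came from mouse embryonic stem cells with the CARLIN/Cas9 genotype, a lineage-barcoding line with Cas9 that every group carries, and were started from 5000 cells per well in medium with SB 431542, an inhibitor of TGF-beta type I receptors. They were embedded in Matrigel on day 6, received the ligand from day 9 and were sectioned at 3 months. The other sections were organoids given B27 supplement with vitamin A (VitaminA), and organoids given the agonists BMS961 and BMS641 together at 0.1 µM (BMS961+BMS641). Their levels are set beside some results as values, and agent and dose differ. Each group has 1 section, in which more than a single organoid may lie, so nothing could be tested and no difference between ligands can be told apart from a difference between sections.

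Retinoic acid is made in the body from vitamin A. Retinol is carried and oxidised to retinaldehyde and then to retinoic acid, and enzymes of the Cyp26 family break the product down. Retinoic acid receptors (alpha, beta and gamma) bind DNA as partners of retinoid X receptors, hold corepressors without ligand and exchange them for coactivators with it. In the embryo this pathway helps to set the identity of the hindbrain and spinal cord along the head-to-tail axis, largely through Hox genes, and it promotes the differentiation of neurons.

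The receptor pairs bind direct repeats of a short motif, and the promoters of Rarb, which encodes receptor beta, and Cyp26a1, which encodes a retinoic acid hydroxylase, carry textbook examples. They are shown because they are the classical places where activated receptors act and because the comparison asks how the targets of both ligands stood. Each line gives the 150 bases before the start of the gene in RefSeq, build GRCm38.p6, 5′ to 3′ along the gene. The Rarb window is chr14:16575477-16575626 on the minus strand, and the Cyp26a1 window is chr19:37697658-37697807 on the plus strand. Capitals mark a direct repeat of that motif spaced by 5 bases, which in Cyp26a1 lies on the opposite strand.
Rarb: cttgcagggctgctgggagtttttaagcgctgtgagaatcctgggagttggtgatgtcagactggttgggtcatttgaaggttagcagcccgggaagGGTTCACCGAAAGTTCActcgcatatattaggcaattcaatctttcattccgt
Cyp26a1: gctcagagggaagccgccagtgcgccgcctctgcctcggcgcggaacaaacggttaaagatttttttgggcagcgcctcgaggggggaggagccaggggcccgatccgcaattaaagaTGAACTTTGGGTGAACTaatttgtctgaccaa
The repeat stood 53 to 37 bases before the start of Rarb and 32 to 16 bases before that of Cyp26a1.

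The ATRA section had 593 spots and the BMS753 section 469, each spot being a small area of tissue that can hold several cells. The deposited values are a signal, which the authors made comparable between the spots of a section by quantile normalisation, and the number of molecules behind it is unknown. The level of a gene here is its mean signal over all spots, as ppm of the sum over genes. In each spot the lowest run of positive values, whose order follows the gene order of the file, was read as a lowest class of tied values. It held 7.58% of the signal with ATRA and 13.8% with BMS753, and a gene is called seen in a spot where it lay above that class. Levels of defining markers are given for orientation, and they do not settle the identity of the tissue. The astrocyte filament gene Gfap was at 3.16 ppm with ATRA and 2.33 ppm with BMS753, too low to be compared. It was seen in 4.22% and 5.12% of spots. Tubb3, the neuronal tubulin, was seen in 15.7% and 23.2% of spots.

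Of 20289 genes listed for both sections, 14902 reached 5 ppm in either and were compared. At that limit, 688 compared genes had their higher level between 5 and 6 ppm, and 774 genes left out had it between 4 and 5 ppm. In most genes the share of signal was larger with BMS753: 11986 genes had the higher ppm there and 2916 with ATRA. The median level was 16.0 ppm with ATRA and 24.7 ppm with BMS753, and the median log2 ratio of BMS753 over ATRA, each level plus 1 ppm, was 0.71. Ratios are therefore given relative to that median and called centred log2 ratios, so that a gene of equal ppm in both sections has a negative centred ratio. A gene was counted as higher with BMS753 at a centred log2 ratio of 1 or more, and as lower at -1 or less.

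By this fold threshold, 1009 genes (6.77% of those compared) were higher and 2174 (14.6%) were lower with BMS753 than with ATRA. The genes counted as lower held 40.7% of the signal with ATRA and 14.9% with BMS753. Those counted as higher held 0.850% and 4.51%. With the lowest class set to 0, the same 1009 genes (6.77%) stayed higher and 1979 (13.3%) stayed lower. To see how far levels vary inside a section, each was cut into 4 quadrants of 105 to 158 spots, which are parts of the same tissue and no replicates. All quadrants with BMS753 lay above all with ATRA for 979 of the genes counted as higher (6.57% of all compared), and below for 1382 of those counted as lower (9.27%). Quadrants were compared in ppm, without centring, so that over all compared genes, past the threshold or not, they lay above for 5196 (34.9%) and below for 1388 (9.31%). In bulk measures such as these, fewer cells of a type and less RNA per cell cannot be told apart.

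**Figure D1:**
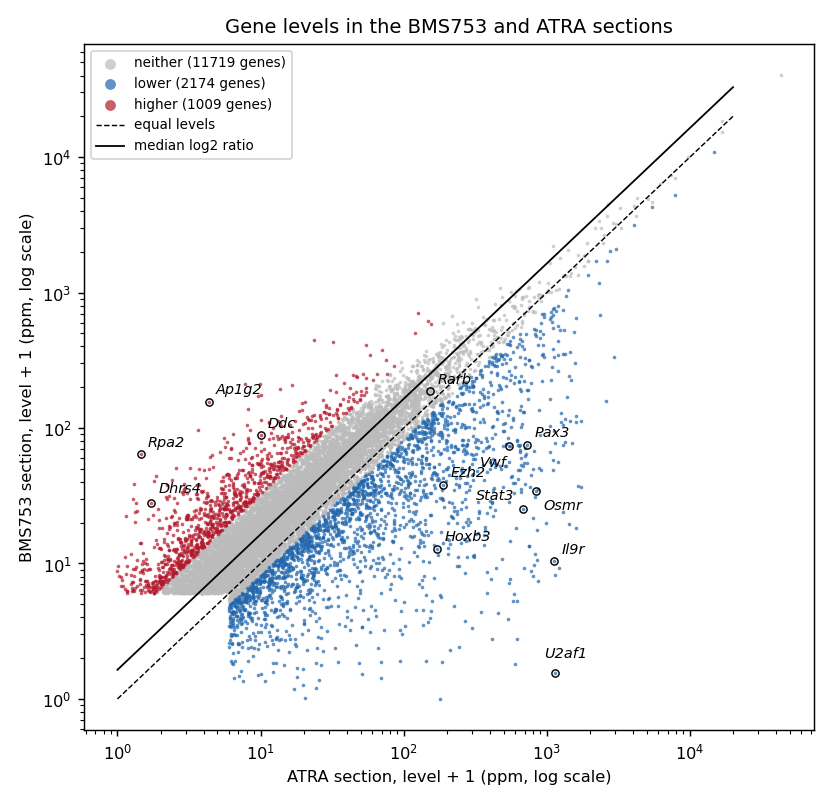
Level of each of the 14902 compared genes plus 1 ppm in the ATRA section (x axis) and the BMS753 section (y axis), both on log scales, with 1009 genes counted as higher in red and 2174 counted as lower in blue. The cloud lies above the dashed line of equal levels by the median log2 ratio of 0.71 (solid line), and the low tail reaches further from it than the high tail.

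The differences from the median were not of the same size in both directions. A centred log2 ratio of -3 or less was reached by 423 genes, and 3 or more by 35. Beyond 5 there were 94 lower genes and 0 higher ones. This balance holds relative to the median: without centring, 3929 genes were higher and 1102 lower at the same threshold, so that 78.1% of the genes past it were higher, against 31.7% with centring. The centred balance moved with how widely a gene was seen. Among the 792 genes seen in over 80% of the spots of either section, 60.9% were lower and 0.505% higher, with a median centred log2 ratio of -1.39. Among the 3628 genes seen in 20% to 40% of spots, 14.4% were lower and 9.90% higher. At 5% to 10% of spots the shares were 5.48% and 6.43%. The part that this relation has in the counts of gene list members was not tested. For the larger counts, the shares over all genes (6.77% higher and 14.6% lower) or over the class of genes seen as widely as the median gene of the list are given beside them. Members counted as lower can lie in wider classes than the median gene. Each class also rests on the section where a gene was seen more, so these shares are no matched background.

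Of the receptor genes compared, 1 passed the threshold. Of 6 receptor genes, 5 were compared, with a median centred log2 ratio of -0.22 against 0 for all genes. Rara, which encodes the receptor that both ligands activate, was at 38.2 ppm with ATRA (quadrants 35.2 to 39.9) and 54.2 ppm with BMS753 (quadrants 49.1 to 58.4), a centred log2 ratio of -0.22. Rarb, the target shown above, was at 152 ppm (quadrants 144 to 157) and 187 ppm (quadrants 153 to 234), and these quadrants overlapped. Its centred log2 ratio was -0.42, and it was seen in 81.5% of spots with ATRA and 77.8% with BMS753. Rarg, for receptor gamma, was at 15.3 and 34.2 ppm (centred 0.39), and Rxra, for retinoid X receptor alpha, at 23.2 and 55.1 ppm (centred 0.50). None of these 4 passed the threshold.

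Rxrg, for retinoid X receptor gamma, was the only receptor gene counted as lower with BMS753. Its level was 25.8 ppm with ATRA (quadrants 24.3 to 27.1) and 13.5 ppm with BMS753 (quadrants 7.16 to 18.1), a centred log2 ratio of -1.61. It was at 16.1 ppm in VitaminA and 24.6 ppm in BMS961+BMS641. Rxrb was below 5 ppm in both sections, at 1.24 and 0.923 ppm.

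Among the enzymes that make retinoic acid or its precursors, 16 of 22 listed genes were compared. Of the 16, 2 were higher (12.5%, against 6.77% of all genes) and 1 lower (6.25%, against 14.6%). Dhrs4, a reductase of retinaldehyde, was at 0.714 ppm with ATRA (quadrants 0.0864 to 1.35) and 26.8 ppm with BMS753 (quadrants 22.3 to 37.0), seen in 2.02% and 26.4% of spots. Its centred log2 ratio was 3.30, and in the VitaminA and BMS961+BMS641 sections it was at 3.88 and 1.28 ppm. Dhrs3, which turns retinaldehyde back to retinol and is itself a known target of the pathway, was at 2.86 and 12.4 ppm, with quadrants of 1.24 to 4.86 and 9.00 to 15.9 ppm. The centred log2 ratio of Dhrs3 was 1.09. Its level was 28.8 ppm in VitaminA.

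Bco2, an oxygenase that cleaves carotenoids, was lower with BMS753. Its level was 80.3 ppm with ATRA and 6.10 ppm with BMS753, a centred log2 ratio of -4.23. Within the ATRA section Bco2 was uneven, at 30.9 to 159 ppm over the quadrants, and every one of them was above the BMS753 quadrants of 4.91 to 7.92 ppm. A single ATRA spot held 29.3% of the Bco2 signal, and without the brightest spot of each section the levels were 56.8 ppm with ATRA and 5.03 ppm with BMS753. The retinaldehyde dehydrogenases, which carry out the last step to retinoic acid, did not pass the threshold. Aldh1a1 was at 11.7 and 14.6 ppm, Aldh1a2 at 16.2 and 41.1 ppm and Aldh1a3 at 14.3 and 27.1 ppm, ATRA first, with centred log2 ratios of -0.42, 0.57 and 0.16.

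Of 13 carriers and degradation enzymes, 6 were compared and 1 was lower. Crabp1, a binding protein that holds retinoic acid in the cytoplasm, was at 11.0 ppm with ATRA (quadrants 8.35 to 15.5) and 2.44 ppm with BMS753 (quadrants 0.419 to 3.30), a centred log2 ratio of -2.52. BMS961+BMS641 was at 171 ppm. The Cyp26 genes gave no difference past the threshold. Cyp26b1 was at 16.1 and 18.5 ppm and Cyp26c1 at 9.66 and 19.0 ppm. Cyp26a1, whose promoter is shown above, was at 1.74 ppm with ATRA and 1.01 ppm with BMS753 and was seen in 2.87% and 1.92% of spots, too low to be compared. Stra6, the membrane receptor of the retinol carrier, was at 7.85 and 7.84 ppm, and the carrier Rbp4 and the binding protein Crabp2 were below 5 ppm in both sections.

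In a list of genes that retinoic acid is known to induce in many cells, 20 of 27 listed genes were compared. Of these, 3 were higher with BMS753 (15%, against 6.77% of all genes) and 1 was lower (5%, against 14.6%). The median centred log2 ratio was -0.06. Nr2f2, an orphan nuclear receptor of the COUP family, was at 6.99 ppm with ATRA (quadrants 2.82 to 14.8) and 41.8 ppm with BMS753 (quadrants 36.1 to 53.9), a centred log2 ratio of 1.71. Tgm2, a transglutaminase, was at 10.6 and 43.4 ppm (centred 1.23). Dhrs3, above, was the remaining higher gene. In VitaminA, Nr2f2 and Tgm2 were at 10.6 and 16.5 ppm.

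Stra8, a gatekeeper of meiosis found as a retinoic acid target, was the single lower gene of that list. It was at 47.3 ppm with ATRA and 32.7 ppm with BMS753, and its centred log2 ratio was -1.23. The quadrants, 43.7 to 52.4 ppm with ATRA and 25.1 to 41.5 ppm with BMS753, did not overlap. The homeobox cofactors Meis1 (50.5 and 89.2 ppm) and Meis2 (129 and 138 ppm) did not pass the threshold. Of 9 compared Meis and Pbx family genes, 2 were lower, Pbx4 (centred -1.57) and Pknox1 (centred -1.09).

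Corepressors and coactivators of nuclear receptors gave 1 higher (5%) and 3 lower (15%) of 20 compared, near the shares over all genes (6.77% and 14.6%). Tbl1x and Tbl1xr1, which encode partners of the corepressors, had centred log2 ratios of -1.23 and -1.03. Carm1, a coactivator methyltransferase, was at 16.4 and 56.2 ppm and lay at the threshold, at 1.00. The acetyltransferases Crebbp (172 and 244 ppm) and Ep300 (46.7 and 62.4 ppm) did not pass it.

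A direct repeat of the kind shown for Rarb and Cyp26a1 stood in a similar share of the promoters of higher, lower and other genes. The search covered the RefSeq windows from 250 bases before to 50 bases after each start, on both strands, for repeats, alike or mixed, of the motif AGGTCA, of AGTTCA, of GGGTCA or of GGTTCA, spaced by 5, 2 or 1 bases. Such a repeat was in 193 of all 32851 windows (0.588%) and in 48 of the 11711 compared genes that have a window (0.410%). It was in 3 of 799 higher genes (0.375%), 6 of 1713 lower genes (0.350%) and 39 of 9199 other genes (0.424%). The spacing of 5 alone was in 32 windows (0.0974%). The higher genes with a repeat were Slc7a7, Spata9 and Gm51425, and the lower ones were Tmem248, Slc45a3, Dph5, Akt1, Tlk2 and Tinagl1, named after their values were seen. The absence of these letters from a window of this length says nothing of more distant sites.

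Among 18 compared Hox genes, which encode the homeodomain factors of head-to-tail identity, 4 were lower with BMS753 (22.2%, against 14.6% of all genes and 5.48% of those seen in 5% to 10% of spots, the class of the median Hox gene) and 0 were higher. The quadrants lay apart for 2 of the 4. The median centred log2 ratio was -0.24, or -0.49 with the lowest class at 0. Hoxb3, a gene of the hindbrain end of its cluster, was at 169.8 ppm with ATRA (quadrants 138 to 206) and 11.9 ppm with BMS753 (quadrants 9.54 to 15.7). It was seen in 71.7% of ATRA spots and 18.8% of BMS753 spots. Among all genes seen in 60% to 80% of spots, as Hoxb3 was with ATRA, 31.8% were lower. The centred log2 ratio of Hoxb3 was -4.44. The VitaminA and BMS961+BMS641 sections held 20.5 and 12.1 ppm.

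Hoxd1 was also lower, at 10.6 ppm with ATRA and 1.92 ppm with BMS753 (centred -2.71), and 1.35 and 1.11 ppm in the other sections. Hoxa10, a gene of the trunk part of its cluster, was at 27.8 and 16.6 ppm (centred -1.42), and Hoxd11 at 8.11 and 5.38 ppm (centred -1.23), with overlapping quadrants in both genes. No other compared gene of the cluster of Hoxb3 passed the threshold. Of its direct neighbours, Hoxb2 was too low to be compared, with all of its ATRA signal in a single spot. Hoxb4, on the other side, was at 9.95 and 8.72 ppm (centred -0.89), in the same direction and short of the threshold. Further along the cluster, Hoxb1 was at 3.74 and 6.53 ppm (centred -0.05) and Hoxb7 at 5.23 and 9.52 ppm (centred 0.04). Hoxa3, the counterpart of Hoxb3 in another cluster, was at 48.0 and 56.0 ppm, and Hoxd3 at 44.0 and 49.1 ppm.

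**Figure D2:**
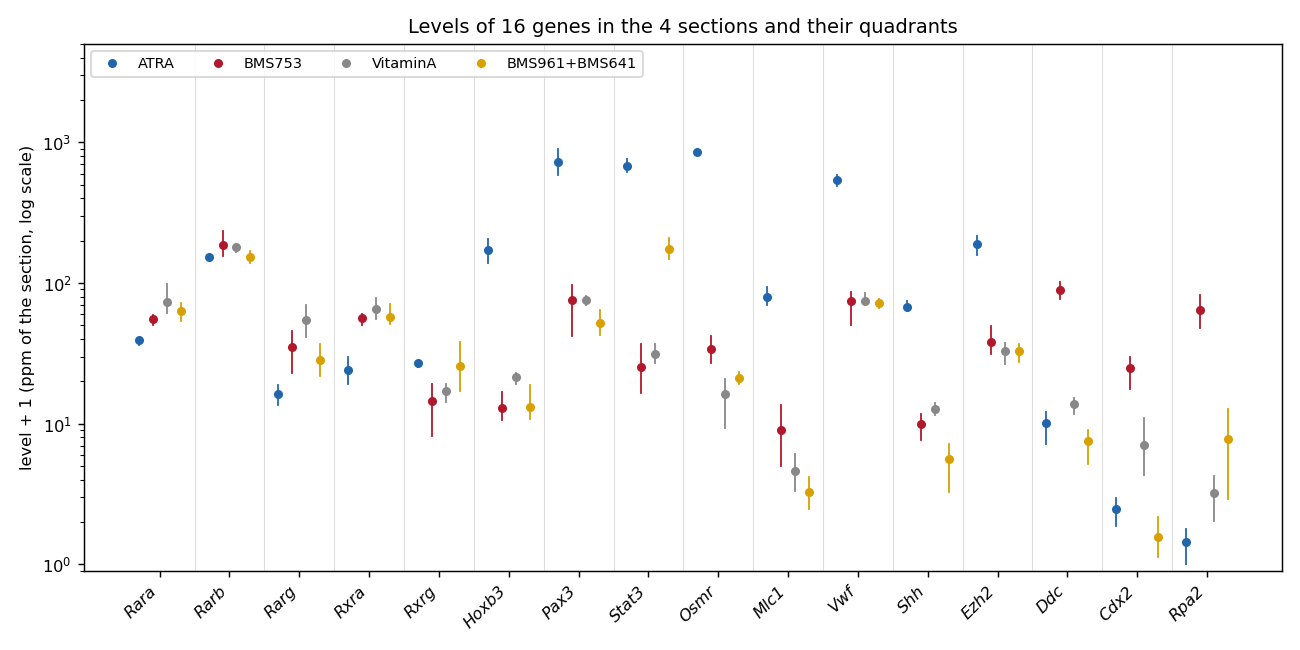
Levels plus 1 ppm (log scale) of 16 genes in the 4 sections, with points for the whole section and bars from its lowest to its highest quadrant. For Hoxb3, Pax3, Stat3, Osmr, Mlc1, Vwf, Shh and Ezh2 the ATRA bar lies above the BMS753 bar, and for Ddc, Cdx2 and Rpa2 below it.

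Factors that mark regions of the neural tube went both ways. Pax3, a factor of the dorsal neural tube and neural crest, was at 727 ppm with ATRA (quadrants 583 to 897) and 74.5 ppm with BMS753 (quadrants 41.2 to 95.9), a centred log2 ratio of -3.98. Its level was 74.8 ppm in VitaminA and 50.9 ppm in BMS961+BMS641. Pax8, of the midbrain-hindbrain border and other tissues, was at 58.6 and 12.1 ppm (centred -2.90), with 53.4 ppm in BMS961+BMS641. These were the 2 lower of 19 compared midbrain, hindbrain and spinal cord factors.

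The 2 higher factors were Cdx2 and En1. Cdx2, a caudal homeobox factor that acts on Hox genes in the posterior embryo, was at 1.46 ppm with ATRA (quadrants 0.889 to 1.95) and 24.0 ppm with BMS753 (quadrants 16.8 to 29.0), a centred log2 ratio of 2.63. En1, a midbrain-hindbrain factor, was at 3.60 and 18.4 ppm (centred 1.36), and at 86.8 ppm in VitaminA. Among 14 compared forebrain factors, Lhx5 was higher, at 10.7 and 90.7 ppm (centred 2.25). Otx2 (11.1 and 6.88 ppm) and Lhx2 (40.3 and 26.6 ppm) were lower, with centred log2 ratios of -1.33 and -1.30. Quadrants overlapped for both, for Otx2 at 8.43 to 12.9 and 2.75 to 12.1 ppm.

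Of 22 compared markers that neurons share, 0 were higher and 3 lower, with a median centred log2 ratio of -0.17. The lower share of 13.6% stands beside 20.7% of all genes seen in 40% to 60% of spots, the class of the median marker. Gap43, a growth cone protein, was at 156 ppm with ATRA (quadrants 145 to 168) and 40.8 ppm with BMS753 (quadrants 31.1 to 47.1), a centred log2 ratio of -2.63. The RNA-binding genes Elavl3 (23.3 and 14.3 ppm) and Rbfox2 (143 and 90.9 ppm) had -1.38 and -1.36, and the quadrants of Rbfox2 overlapped. Rbfox3, which encodes the nuclear antigen NeuN, was at 232 and 445 ppm. Map2, of dendrites, was at 28.9 and 77.5 ppm, Tubb3 at 24.2 and 54.8 ppm, Dcx, of young neurons, at 23.8 and 69.0 ppm and Stmn2, of growing axons, at 12.7 and 40.4 ppm. Their centred log2 ratios, from 0.22 to 0.88, stayed below the threshold. Of 22 listed proneural and neurogenic factors 9 were compared and 0 passed it, Neurog2 among them at 3.80 and 10.7 ppm.

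Genes of transmitter use gave both higher and lower members. The clearest higher gene was Ddc, the decarboxylase that makes dopamine and serotonin from their precursors. Its level was 9.05 ppm with ATRA (quadrants 6.17 to 11.0) and 87.8 ppm with BMS753 (quadrants 75.7 to 101), seen in 18.7% and 60.3% of spots, a centred log2 ratio of 2.43. VitaminA and BMS961+BMS641 were at 12.9 and 6.49 ppm. Tph1, a tryptophan hydroxylase, was at 5.76 and 30.4 ppm (centred 1.50), and at 105 ppm in VitaminA. Slc6a3, the dopamine transporter, was at 9.21 and 36.3 ppm (centred 1.15).

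Of the same list of 24 compared dopaminergic, serotonergic and cholinergic genes, 5 were lower (20.8%, against 14.6% of all genes). The 3 higher ones above are 12.5%, against 6.77% of all genes. With the lowest class at 0, 4 of the 5 stayed lower. Htr2c, a serotonin receptor, was at 493 ppm with ATRA (quadrants 479 to 511) and 72.1 ppm with BMS753 (quadrants 50.4 to 99.2), a centred log2 ratio of -3.47. Chrna7, an acetylcholine receptor subunit, was at 205 and 58.5 ppm (centred -2.51). Htr2c was at 49.6 and 55.2 ppm in VitaminA and BMS961+BMS641, and Chrna7 at 34.6 and 35.5 ppm. Th, which makes the precursor of dopamine, was at 6.09 and 13.2 ppm and Chat, which makes acetylcholine, at 27.5 and 81.9 ppm, and neither passed the threshold.

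Of 23 compared GABAergic genes, 2 were higher (8.70%, against 6.77% of all genes) and 2 lower (8.70%, against 14.6%). Npy, a peptide of interneurons and a higher gene of the list, was at 0.486 ppm with ATRA and 7.90 ppm with BMS753 (centred 1.87). Gabbr1 and Gabbr2, the subunits of the GABA-B receptor, were both lower, at centred log2 ratios of -2.73 and -1.45. Gabbr1 went from 65.4 ppm with ATRA to 15.4 ppm with BMS753, and stood at 79.1 ppm in VitaminA and 9.80 ppm in BMS961+BMS641. The GABA synthesis genes Gad1 (18.2 and 41.9 ppm) and Gad2 (13.4 and 20.5 ppm) were not past the threshold. Of 30 compared glutamatergic genes 4 were lower and 0 higher: Grm4 (centred -1.64), Dlg4 (-1.55), Shank3 (-1.35) and Grin2b (-1.30), with the quadrants of the 2 sections overlapping in all but Grm4. The 4 are 13.3% of the list, whose median gene lies in the same class, with 20.7% lower.

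Ion channels and axon guidance genes held many widely seen members. Of 32 compared channel genes, 7 were lower and 2 higher, with a median of 75.1% of spots in the section where a gene was seen more. The lower share of 21.9% stands beside 31.8% of all genes seen in 60% to 80% of spots. Kcnc2, a potassium channel of fast-firing neurons, was at 635 ppm with ATRA (quadrants 562 to 724) and 72.8 ppm with BMS753 (quadrants 60.5 to 86.5), a centred log2 ratio of -3.82. Cacna1e, a calcium channel, had -2.97 (644 and 134 ppm), and Kcnn2, a calcium-gated potassium channel, -2.67 (736 and 189 ppm). Kcnc1, of the same channel family as Kcnc2, was higher (centred 1.18).

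Of 39 compared axon guidance genes, 11 were lower and 0 higher (median centred log2 ratio -0.32), and their median gene was seen in 67.3% of spots. The 11 are 28.2% of the list, near the 31.8% lower of the same class. Sema3c, a secreted semaphorin, was at 224 ppm with ATRA (quadrants 204 to 274) and 34.0 ppm with BMS753 (quadrants 26.5 to 39.7), a centred log2 ratio of -3.40. Its receptor component Nrp1 was at 137 and 40.8 ppm (centred -2.43). The ephrin ligand Efna5 was at 723 and 190.1 ppm (centred -2.64) and the Slit receptor Robo2 at 1292 and 349 ppm (centred -2.60). The ligands Slit1, Slit2 and Slit3 had centred log2 ratios of -0.06, 0.66 and -0.01.

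The lowest ratio of any list member was in cytokine signalling. Of 27 compared cytokine receptor and Stat pathway genes, 6 were lower and 0 higher, with a median centred log2 ratio of -0.37. The lower share was 22.2%, against 14.6% of all genes and 9.42% of those seen in 10% to 20% of spots, the class of the median gene of the list. The lower genes Osmr, Stat3 and Il9r were seen more widely, in over 80% of ATRA spots, a class of which 60.9% were lower. Osmr, the receptor subunit for oncostatin M, was at 846 ppm with ATRA (quadrants 820.3 to 878) and 33.0 ppm with BMS753 (quadrants 26.1 to 41.0). It was seen in 98.1% and 32.2% of spots, and its centred log2 ratio was -5.35. VitaminA held 15.1 ppm and BMS961+BMS641 20.1 ppm. Stat3, a transcription factor downstream of such receptors, was at 676 ppm (quadrants 612 to 759.6) and 24.1 ppm (quadrants 15.4 to 35.6), a centred log2 ratio of -5.47. BMS961+BMS641 held 173 ppm of Stat3.

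Il9r, the interleukin 9 receptor, had the largest difference of the list, at 1124 ppm with ATRA and 9.42 ppm with BMS753 (centred -7.47). Jak1, a kinase bound to such receptors, was at 178 and 91.8 ppm (centred -1.66). Other members of the same route did not pass the threshold. Il6st, the shared receptor subunit gp130, was at 4.48 and 6.16 ppm, the oncostatin M gene Osm at 9.01 and 18.3 ppm, Lifr at 28.7 and 94.5 ppm and Jak2 at 3.56 and 10.9 ppm. Socs3, a feedback inhibitor that Stat3 induces, was below 5 ppm in both sections, at 2.13 and 4.41 ppm.

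Genes of astroglia gave 3 lower and 0 higher of 20 compared, near the share over all genes, and a median centred log2 ratio of -0.09. Mlc1, a membrane protein of astrocyte end feet, was at 78.3 ppm with ATRA (quadrants 69.0 to 93.0) and 8.01 ppm with BMS753 (quadrants 4.01 to 12.7), a centred log2 ratio of -3.85. It was below 5 ppm in VitaminA and BMS961+BMS641. Gjb6, an astrocyte gap junction protein, was at 25.2 and 8.43 ppm (centred -2.19), and Gpc5, a glypican, at 1241 and 532 ppm (centred -1.94). Other astroglial genes had larger ppm with BMS753 without passing the threshold: Slc1a3, a glutamate transporter, was at 26.7 and 79.8 ppm, Aldh1l1 at 5.79 and 19.3 ppm and Clu at 4.74 and 14.8 ppm, with centred log2 ratios of 0.83, 0.87 and 0.75. In a list of reactive astroglia genes, 3 of 12 compared were lower (25%, against 14.6% of all genes) and 0 higher. The 3 were Stat3, Osmr and Gbp2, an interferon-induced GTPase (24.6 and 2.96 ppm, centred -3.41). Stat3 and Osmr are in both lists and are no separate evidence.

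**Figure D3:**
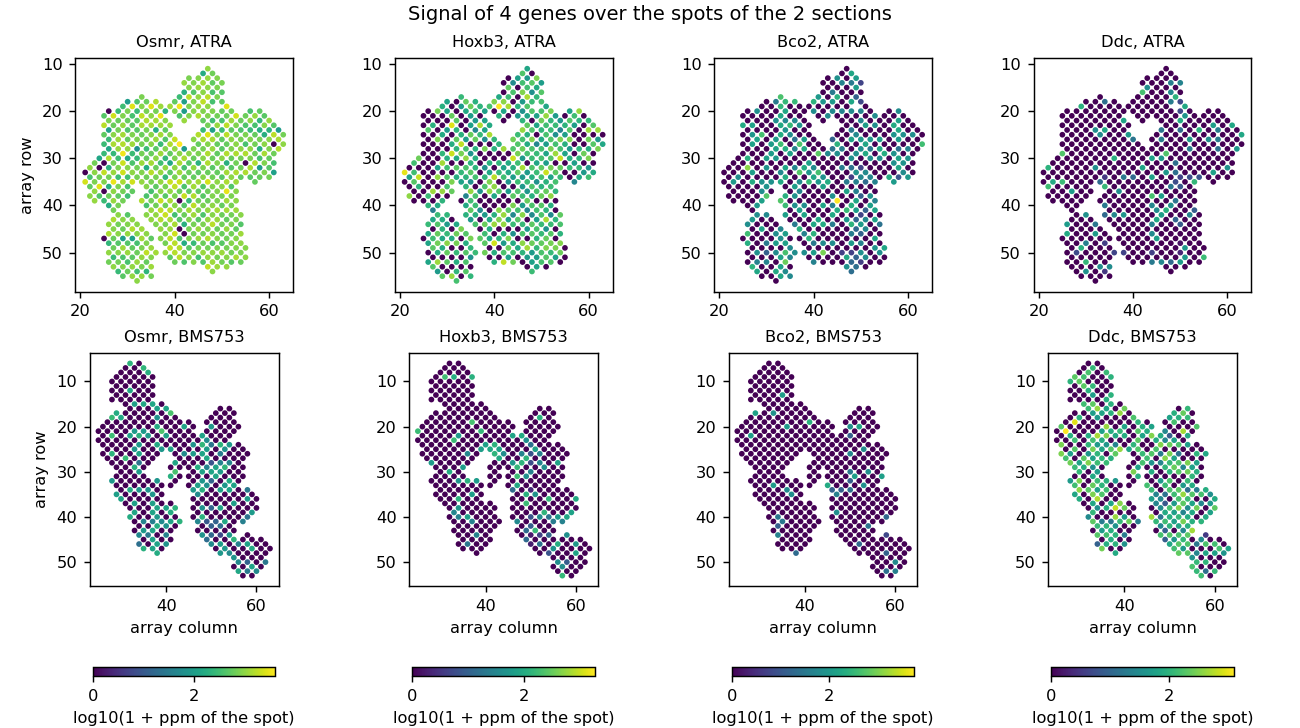
Signal of Osmr, Hoxb3, Bco2 and Ddc in each spot of the ATRA section (top) and the BMS753 section (bottom), as log10 of 1 plus the ppm of the spot, on a shared colour scale per gene and at the array row and column of the spot. Osmr fills 98.1% of ATRA spots, Bco2 is uneven over the ATRA section, and Ddc is seen in 60.3% of BMS753 spots against 18.7% of ATRA spots.

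Endothelial genes had the lowest median of the lists with at least 5 compared genes. Of 12 compared, 6 were lower and 0 higher, and the median centred log2 ratio was -1.15, or -1.03 with the lowest class at 0. It was -0.63 with no filter on low levels and -0.54 with the quantiles of both sections made equal, where the cytoskeletal and translation list was lower (-1.13), and with a filter of 20 ppm the reactive astroglia list was lower. The median gene of the list was seen in 60.5% of spots, in the class of which 31.8% of all genes were lower. Vwf, the clotting factor that endothelium stores, was at 542 ppm with ATRA (quadrants 489 to 587) and 73.0 ppm with BMS753 (quadrants 49.6 to 85.4), a centred log2 ratio of -3.59. Eng, a co-receptor of the TGF-beta family, was at 114 and 17.6 ppm (centred -3.34), Emcn, a sialomucin, at 131 and 30.0 ppm (centred -2.80) and Tek, the angiopoietin receptor, at 169.6 and 40.3 ppm (centred -2.76). The receptors Flt4 (102 and 31.0 ppm, centred -2.40) and Flt1 (449 and 245 ppm, centred -1.58, with overlapping quadrants) were the other lower genes. Further defining genes of the lineage did not pass the threshold. Pecam1 was at 20.3 and 57.6 ppm, Cdh5 at 6.46 and 16.1 ppm and Kdr at 7.07 and 11.8 ppm, with centred log2 ratios of 0.74, 0.48 and -0.04, and Sox17 and Sox18 were below 5 ppm in both sections. The summed level of all 15 listed genes was 1841 ppm with ATRA, 884 ppm with BMS753, 1295 ppm in VitaminA and 921 ppm in BMS961+BMS641.

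Among 17 compared oligodendrocyte genes, 4 were lower (23.5%, against 14.6% of all genes) and 2 higher (11.8%, against 6.77%). With the lowest class at 0, 3 of the 4 stayed lower. For Mbp, which is among the 4, a single ATRA spot held 21.2% of the signal. Without the brightest spot of each section Mbp was at 63.5 ppm with ATRA and 59.2 ppm with BMS753. Sox10, a factor of oligodendrocytes and neural crest, was at 24.1 ppm with ATRA (quadrants 17.4 to 32.3) and 1.85 ppm with BMS753 (quadrants 0.440 to 3.59), a centred log2 ratio of -3.85. Of the myelin genes, Mobp was lower (11.3 and 3.37 ppm, centred -2.21) and Cldn11 higher (10.9 and 61.4 ppm, centred 1.68). Mog varied most inside the BMS753 section, at 27.7 to 175 ppm over the quadrants, which enclosed the ATRA quadrants of 74.4 to 102 ppm. Of 10 compared microglial genes 2 were lower (20%, against 14.6% of all genes), C1qa (6.39 and 1.63 ppm) and C1qb (11.3 and 8.59 ppm). The receptors Csf1r (15.5 and 32.1 ppm) and Cx3cr1 (25.2 and 37.7 ppm) did not pass the threshold.

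Of 20 compared mesenchyme and matrix genes 2 were higher (10%, against 6.77% of all genes) and 3 lower (15%, against 14.6%). Their median centred log2 ratio was 0.29. Col6a3 was at 22.6 and 123 ppm (centred 1.68) and Col1a2 at 2.51 and 16.6 ppm (centred 1.61), while Col6a2, a partner chain of Col6a3, was at 219 and 65.8 ppm (centred -2.43). Pdgfrb, a receptor of pericytes, was lower, at 91.6 and 31.5 ppm (centred -2.23). Of 13 compared choroid plexus and ependymal genes 3 were lower (23.1%, against 14.6% of all genes) and 1 higher (7.69%, against 6.77%). The cilium genes Dnah5 (1262 and 128 ppm, centred -4.01) and Cfap54 (657 and 186 ppm, centred -2.53) led them, but Foxj1, the regulator of motile cilia, was at 2.46 and 6.02 ppm and the dyneins Dnah9 and Dnah11 had centred log2 ratios of -0.02 and 0.20.

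Small groups of other tissues were measured too. Of the erythroid genes, Alas2, of heme synthesis in red cells, was higher with BMS753. It was at 1.21 ppm with ATRA and 37.1 ppm with BMS753 (centred 3.39), while the erythroid factors Gata1 and Klf1 were below 5 ppm in both. Among 10 compared muscle genes the embryonic myosin Myh3 was higher, at 27.8 and 147 ppm (centred 1.65). Of 11 compared epithelial genes 2 were lower, Dsg2 (centred -2.21) and Epcam (centred -1.35). Epcam was at 10.4 and 6.36 ppm here and at 921 ppm in BMS961+BMS641. Of 11 compared eye genes 1 was higher and 1 lower, the lens crystallin gene Cryaa (centred -1.66).

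**Figure D4:**
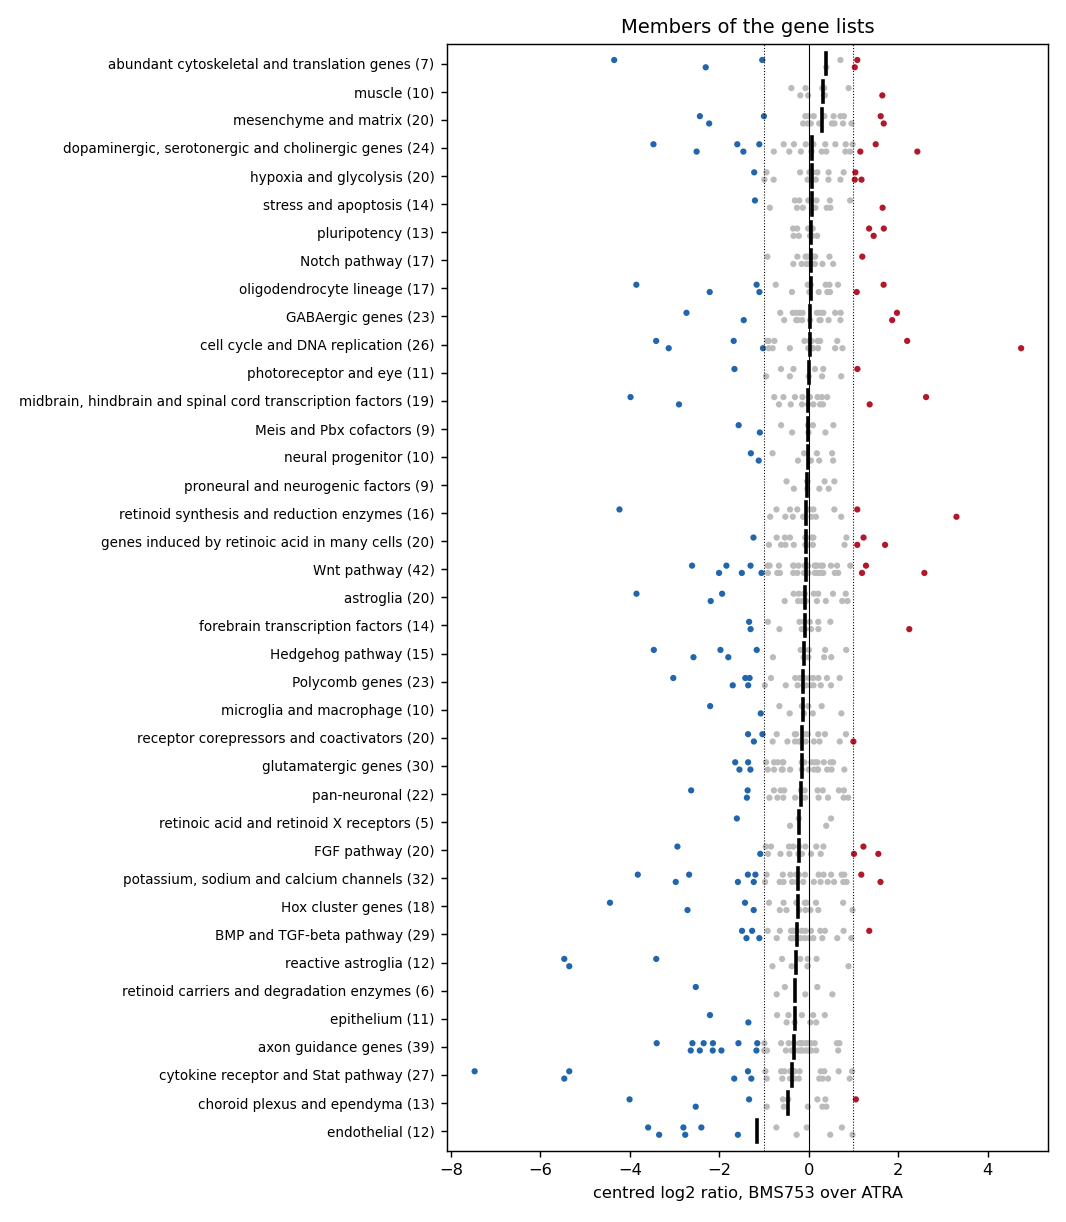
Centred log2 ratio of BMS753 over ATRA (x axis) for the compared members of each gene list with at least 5 of them (number in parentheses), red for genes counted as higher and blue as lower, with black bars at the list medians and dotted lines at the threshold of 1 either way. The endothelial list has the lowest median, -1.15, and the other medians lie between -0.46 and 0.39.

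In the Hedgehog pathway, which patterns the ventral neural tube, 5 of 15 compared genes were lower (33.3%, against 14.6% of all genes) and 0 higher. The quadrants lay apart for 3 of the 5. The ligand Shh was at 66.3 ppm with ATRA (quadrants 62.3 to 73.8) and 9.01 ppm with BMS753 (quadrants 6.64 to 10.7), a centred log2 ratio of -3.46, and it was at 11.7 ppm in VitaminA and 4.62 ppm in BMS961+BMS641. Hhat, which attaches palmitate to the ligand, was at 780.1 and 214 ppm (centred -2.58), and Ihh, a related ligand, at 9.52 and 3.40 ppm (centred -1.97). Disp2 was lower by the whole section (centred -1.80) but spread from 6.80 to 105 ppm over the ATRA quadrants, across the BMS753 range of 11.1 to 23.2 ppm. A single ATRA spot held 59.1% of its signal, and without the brightest spot of each section the centred log2 ratio was -0.77, which leaves 4 lower genes. The receptor Ptch1 (300.3 and 491 ppm) and the effector Gli1 (17.8 and 16.7 ppm), both known targets of the pathway, did not pass the threshold.

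In the Wnt pathway 3 of 42 compared genes were higher (7.14%) and 6 lower (14.3%), near the shares over all genes of 6.77% and 14.6%. Dkk1, a secreted inhibitor, was at 0.124 ppm with ATRA (quadrants 0 to 0.276) and 10.1 ppm with BMS753 (quadrants 4.54 to 14.5), a centred log2 ratio of 2.59, and at 0.246 and 0.345 ppm in the other sections. Axin2 (145 and 65.9 ppm, centred -1.84), Rnf43 (275 and 73.4 ppm, centred -2.61) and Lgr5 (197 and 79.9 ppm), which are widely used as targets of the pathway, were lower. Lef1, another known target, was at 76.5 and 99.1 ppm and was not past the threshold. The ligands Wnt5b (centred 1.28) and Wnt11 (centred 1.19) were the other higher genes.

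Of 20 compared FGF genes 3 were higher (15%, against 6.77% of all genes) and 2 lower (10%, against 14.6%). Fgf18, a ligand, was at 496 ppm with ATRA (quadrants 467 to 548) and 106 ppm with BMS753 (quadrants 95.0 to 136), a centred log2 ratio of -2.94. Etv1, a factor downstream of FGF signals, was at 4.21 and 24.2 ppm (centred 1.56). Of 29 compared BMP and TGF-beta genes 4 were lower (13.8%, against 14.6% of all genes) and 1 higher (3.45%, against 6.77%). The ligands Bmp4 (centred -1.49) and Bmp5 (-1.39) were among the lower, and the effector Smad9 was higher (1.35). Of 17 compared Notch genes the ligand Dner was higher, at 155 and 587 ppm (centred 1.20), and 0 were lower.

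Chromatin and growth genes were mixed. Of 23 compared Polycomb genes, which encode repressors of developmental genes, 5 were lower (21.7%, against 14.6% of all genes) and 0 higher. Of genes seen in 10% to 20% of spots, the class of the median Polycomb gene, 9.42% were lower. The quadrants lay apart for 3 of the 5. Ezh2, the histone methyltransferase of the complex, was at 189 ppm with ATRA (quadrants 158 to 215) and 37.2 ppm with BMS753 (quadrants 30.3 to 48.7), a centred log2 ratio of -3.03. VitaminA and BMS961+BMS641 were at 31.7 and 32.1 ppm. Its partner Suz12 was at 21.6 and 30.2 ppm (centred -0.25), and Jarid2 at 213 and 107 ppm (centred -1.70).

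Of 26 compared cell cycle genes 2 were higher (7.69%) and 4 lower (15.4%), near the shares over all genes (6.77% and 14.6%). Rpa2, a subunit of the protein that coats single-stranded DNA, was at 0.452 ppm with ATRA (quadrants 0.0137 to 0.787) and 63.2 ppm with BMS753 (quadrants 47.0 to 81.0). Its centred log2 ratio of 4.75 was the highest of the genes named by the rule, and its partner Rpa1 was at 17.4 and 15.3 ppm (centred -0.89). Cdk1, the mitotic kinase, was at 1.20 and 15.6 ppm (centred 2.20), while Bub1b, of the spindle checkpoint (125 and 18.5 ppm, centred -3.41), and Rrm1, of nucleotide synthesis (112 and 20.2 ppm, centred -3.13), were lower. The proliferation marker Mki67 was below 5 ppm, at 1.06 and 4.17 ppm. Of 13 compared pluripotency genes Klf5 (centred 1.68), Sall4 (1.45) and Tdgf1 (1.35) were higher (23.1%, against 6.77% of all genes) and 0 lower. Pou5f1, the core factor, was at 7.06 and 9.46 ppm. In VitaminA, Sall4 and Klf5 were at 144 and 28.5 ppm.

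Of 10 compared neural progenitor genes 2 were lower, Dach1 (centred -1.29) and Sox3 (-1.12, with 52.1% of its ATRA signal in 1 spot), and Pax6, of radial glia, was at 8.85 and 18.0 ppm. Hypoxia and glycolysis genes gave 3 higher (Pgk1, Egln1 and Aldoa, centred 1.03 to 1.18) and 1 lower (Pfkl, -1.22) of 20 compared. These are 15% higher and 5% lower, against 6.77% and 14.6% of all genes. Stress and apoptosis genes gave 1 higher (Dnajb1, 1.65) and 1 lower (Atf3, -1.20) of 14. Of 22 listed cytoskeletal and translation genes that most cells express strongly, 7 reached 5 ppm. Of these 7, 2 were higher (28.6%, against 6.77% of all genes) and 3 lower (42.9%, against 14.6%). Tpt1, a translation-linked protein, was at 16.9 and 0.445 ppm (centred -4.35), and the elongation factor Eef2 at 35.1 and 11.0 ppm (centred -2.30). The higher members were Ftl1 and H3f3a, a histone variant gene whose sign depended on 1 quadrant of the BMS753 section. In that section 1 spot held 61.1% of the H3f3a signal, and without the brightest spots its centred log2 ratio was -0.00730.

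The largest differences belonged to genes seen almost everywhere in the ATRA section and hardly in the BMS753 section. Taking at least 80% of spots in the one and at most 20% in the other, 83 genes were wide with ATRA and 0 with BMS753. With limits of 70% and 30% the counts were 170 and 3. For context, 743 genes were seen in at least 80% of ATRA spots, 354 in at least 80% of BMS753 spots and 305 in both. The 83 genes held 4.19% of the signal with ATRA and 0.178% with BMS753. Their median share of spots was 89.7% with ATRA and 11.1% with BMS753, and it was 14.1% in VitaminA and 14.2% in BMS961+BMS641.

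These section-wide genes were even over the ATRA section: the highest quadrant was a median of 1.19 times the lowest, and at most 1.60 times. Their centred log2 ratios ran from -10.22 to -2.48, with a median of -5.46. The genes were chosen by their shares of spots in both sections. Those shares, the evenness with ATRA and the low ratios therefore follow in large part from the choice. Evenness was not computed for other genes seen widely with ATRA. Of the 83, 4 were seen in at least 50% of VitaminA spots and 1 in at least 50% of BMS961+BMS641 spots. The depth of the spots is unknown, and its part in this pattern was not tested. Genes that lie next to them in RefSeq gene order were counted too, leaving out any that were section-wide themselves. In 2 cases a section-wide gene was directly followed by another. Of the 161 neighbours kept, 23 were lower (14.3%), near the 14.6% of all genes, with a median centred log2 ratio of 0.04. This share is of neighbours already screened for not being section-wide.

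**Figure D5:**
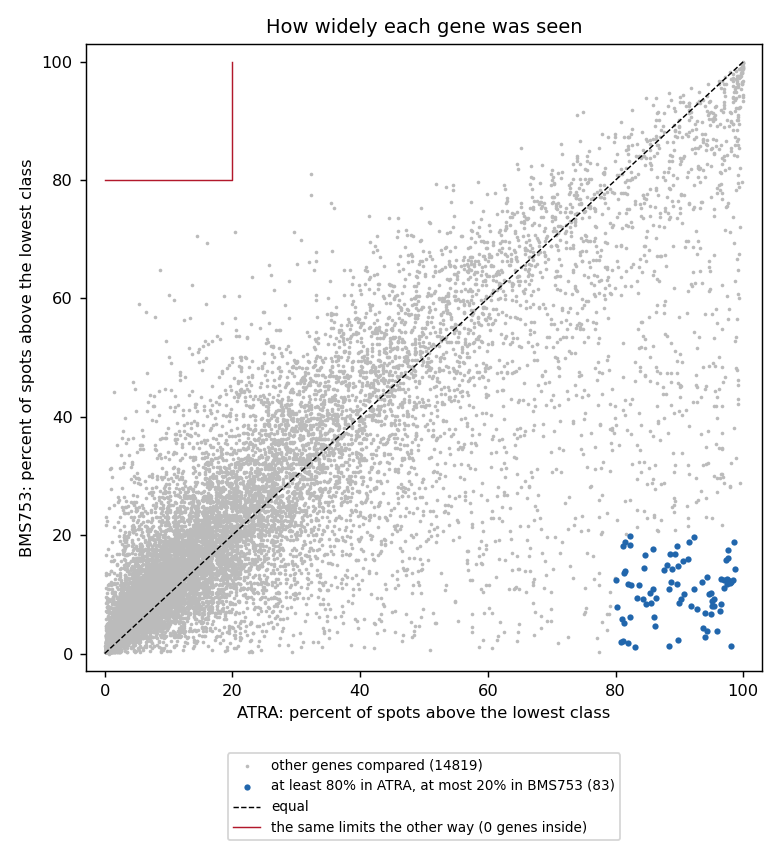
Percent of spots in which each compared gene was seen above the lowest class, in the ATRA section (x axis) and the BMS753 section (y axis). The 83 genes at 80% or more with ATRA and 20% or less with BMS753 are in blue at the lower right, and the corner of the same limits the other way, outlined in red, holds 0 genes.

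Of the 12 lowest ratios named by rule, 11 were of this kind. U2af1, a splicing factor that recognises the end of introns, had the lowest, at 1139 ppm with ATRA (quadrants 1045 to 1233) and 0.564 ppm with BMS753 (quadrants 0.356 to 0.833), a centred log2 ratio of -10.22. It was seen in 98.1% and 1.28% of spots and was at 3.43 and 0.996 ppm in the other sections. Psen2, a presenilin of the gamma-secretase that cleaves Notch, was at 1218 and 8.30 ppm (centred -7.75). Tut7, which adds uridines to RNA ends, was at 1132 and 7.26 ppm (centred -7.81), and Pank2, of coenzyme A synthesis, at 617 and 4.30 ppm (centred -7.58). Pofut2, which adds fucose to proteins, was at 457 and 3.34 ppm (centred -7.44). Il9r, above, Pars2, Cklf, Fabp12, Siae, Clec4e and Olfr724 completed the 12, with centred log2 ratios from -9.09 to -7.37. Olfr724, an olfactory receptor gene, was seen in 77.4% of ATRA spots, just outside the limit.

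The lower genes seen in 10% to 60% of ATRA spots were led by Sec61a1, the channel through which proteins enter the endoplasmic reticulum. It was at 68.1 ppm with ATRA (quadrants 60.7 to 72.8) and 0.868 ppm with BMS753 (quadrants 0.0225 to 2.35), a centred log2 ratio of -5.92. Dmp1, a protein of bone matrix, was at 50.3 and 0.536 ppm (centred -5.78), the receptor gene Gpr83 at 65.0 and 1.38 ppm (centred -5.51) and Rnf112, a ring finger protein of the brain, at 47.6 and 0.831 ppm (centred -5.44). Tesk1, Dxo, Hax1, Crip3, Cyp2g1 and Tex261 followed, with centred log2 ratios from -5.22 to -4.68.

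Genes higher with BMS753 were smaller in their differences and seen in fewer spots. After Rpa2 came Ap1g2, a subunit of a clathrin adaptor, at 3.34 ppm with ATRA (quadrants 1.29 to 5.16) and 155 ppm with BMS753 (quadrants 127 to 183), a centred log2 ratio of 4.46. It was seen in 7.93% and 56.9% of spots, and BMS961+BMS641 was at 41.7 ppm. Hint2, a mitochondrial hydrolase, was at 0.313 and 37.8 ppm (centred 4.17). Sytl4, which takes part in the docking of secretory granules, was at 6.78 and 211 ppm (centred 4.05), and Mov10, an RNA helicase, at 8.98 and 211 ppm (centred 3.69).

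Sptbn5, a beta spectrin, reached the highest level of this group with BMS753, at 22.5 and 445 ppm (quadrants 15.1 to 28.7 and 401 to 486), a centred log2 ratio of 3.53. Aktip, Rhbdd2, Klk11, Kctd12, Adam29 and Ifitm1 had centred log2 ratios from 4.00 (Aktip) down to 3.44 (Ifitm1). Kctd12, a partner of the GABA-B receptor, was at 1.58 and 49.8 ppm, opposite in direction to the receptor genes Gabbr1 and Gabbr2. Ifitm1, an interferon-induced membrane protein, was at 0.335 and 22.8 ppm. Ptafr, the receptor for platelet-activating factor, was at 1.39 and 40.6 ppm (centred 3.41).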

How the data were processed

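The organoids were fixed, frozen and cryosectioned onto printed poly-T arrays whose barcodes give the position of a spot, and sequencing was paired end, per the labels' protocols. The submitters' processing notes name the build mm9. How reads were aligned and molecules counted, whether strand was used and how spots were filtered is not given in the sources used here, so overlapping and antisense genes cannot be told apart. The deposited values are a signal, quantile normalised by the authors over the spots of each section, and hold no counts, so the depth is unknown and no counting interval can be given.

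Levels, ratios, centring, the lowest class and quadrants were computed as the report describes, with a pseudocount of 1 ppm. With 1 section per group there was no test. Symbols were matched ignoring case to RefSeq GRCm38.p6, 20188 by symbol and 77 by synonym, and 24 were unmatched. Promoter windows run from 250 bases before to 50 after a start.

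Genes were named by a rule. Eligible genes passed the threshold as deposited and with the lowest class at 0, reached 20 ppm, were seen in 5% of spots of the higher section, had all quadrants apart and were no predicted, ribosomal protein or mitochondrial genes (526 higher and 1064 lower). Named were the 12 at each end, the 10 at each end among those seen in 10% to 60% of spots, up to 4 passing members of each of 40 gene lists (others where a list or route is described) and a set of retinoid and marker genes. Some of these genes are counted in the lists but not reported here by name. The members, lists and rules were chosen with earlier results of these data known. The steps were tested on simulated sections drawn from the same profile and spread of depth, with some genes changed in either direction. Those sections were not built to hold the median shift or the unequal lowest class seen here. Python 3.11.15, numpy 2.4.6, pandas 2.3.3 and matplotlib 3.10.9 were used.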

Additional observations from a re-analysis of the deposited data

How the results depend on the processing

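No paired analysis was possible because each group has 1 section. The median log2 ratio of 0.71 was 0.57 with a pseudocount of 5 ppm, 1.05 with the median over spots in place of the mean, and 0.18 with the quantiles of both sections made equal. Leaving out a quadrant of a section gave 0.60 to 0.77. The count of higher genes, 1009 of 14902 compared, was 1688 of 13789 with the lowest class at 0 throughout. It was 530 with a pseudocount of 5 ppm and 595 of 9015 with a filter of 20 ppm. With the median over spots it was 475 of 7460, and without centring 3929. The count of lower genes, 2174 of 14902, was 1552 of 9015 with the filter of 20 ppm. With the median over spots it was 1271 of 7460, and without centring 1102. Counts with different totals cannot be compared directly. Higher genes were 31.7% of all genes past the threshold, 42.1% with the lowest class at 0 and 78.1% without centring. The cytoskeletal and translation list turned from a median of 0.39 to -2.30 with the filter of 20 ppm and to -1.13 with equal quantiles. Of 155 named genes past the threshold, 112 were on the same side of it in every centred setting in which they were compared. The setting without centring is not part of that count. Without it Rxrg, for example, had a log2 ratio of -0.89, short of the threshold. H3f3a alone turned sign in the centred settings, also to -0.14 on interior spots and between -0.19 and 1.61 when a quadrant was left out. In a setting chosen after the data were seen, each gene's level was taken without its brightest spot in each section. This left 991 higher and 2172 lower genes. Of the named genes compared there, C1qb (-0.99), Ccdc39 (0.58) and Disp2 (-0.77) fell short of the threshold and H3f3a turned to -0.00730. Other named genes fell below 5 ppm in both sections and were not compared there. Among them were Sox3 (2.49 ppm with ATRA and 3.09 ppm with BMS753), Ftl1 (0.552 and 3.95 ppm) and Dnajb1 (0.0987 and 4.23 ppm). The causes were not tested. The endothelial median of -1.15 was -0.63 with no filter, -0.54 with equal quantiles and -0.99 without a quadrant of the BMS753 section. The depth behind all values is unknown.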
